A study of Mus musculus with 6 samples.

Results

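The genes described here are 37 mouse genes of glycolysis and of the response to low oxygen, listed by symbol. They cover glucose and lactate carriers, the enzymes from hexokinase to lactate dehydrogenase, the enzymes that set the level of fructose-2,6-bisphosphate, the oxygen-sensing pathway and a set of genes induced by hypoxia-inducible factor (HIF). Of the 37, 36 were found under their own symbol among 20458 gene names, and Eno1 was found only in an entry that it shares with Gm5506. A mean of 1 FPKM or more (fragments scaled to transcript length and library size) over both genotypes was reached by 29 of the 36, and the other 7 are given by their values alone.

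Follicular B cells with the surface phenotype B220+AA4.1-CD23+CD21lo were sorted from CD23Cre+Myh9wt/fl mice and from CD23Cre+Myh9fl/fl mice, 3 samples per genotype. Myh9 encodes the heavy chain of non-muscle myosin IIa, and the study asked how follicular B cells differ when both copies can be deleted. All mice carried CD23Cre, a Cre recombinase driven by the promoter of the low-affinity IgE receptor CD23, which acts from the stage at which B cells mature in the spleen. The wt/fl group kept 1 Myh9 copy that Cre cannot delete and is therefore a heterozygous control, not a wild-type one. All mice were C57BL/6. The labels give these samples no age, and the study's methods give an age range in weeks for mice of both sexes analysed ex vivo, without naming these samples. The authors' table holds 1 pooled FPKM per genotype and no value per mouse, so no spread between mice could be computed from them, no difference below was tested here, and the precision of each value is unknown.

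Glycolysis splits glucose into pyruvate in the cytosol and yields ATP, and lactate dehydrogenase and the monocarboxylate carriers remove the product when it is not burned in mitochondria. When oxygen is present, the EGLN prolyl hydroxylases mark HIF subunits for destruction by the VHL ubiquitin ligase. When oxygen is scarce, HIF accumulates, pairs with ARNT and switches on genes for glucose uptake, glycolysis and adaptation to low oxygen. B cells draw on glycolysis when they are activated and divide.

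HIF binds DNA at a core of 5 letters that can read ACGTG, so the promoter windows of the genes were searched for these letters on either strand. Other forms of the core were not searched, so a window without ACGTG may still hold a HIF core. RefSeq windows on GRCm38.p6, from 250 bases before to 50 bases after a transcription start, were found for 35 of the 37 genes, and not for Slc2a3 and Bnip3l. ACGTG stood in at least 1 window of 25 of the 35 (71.4%), beside 21.8% of all 27025 genes with a window. Counted over windows of the same length, it stood in 29 of 51 (56.9%), beside 19.6% of all 32851. The median GC content was 62.7% in the windows of the listed genes and 52.7% in all windows, and its part in the difference was not tested. At least 2 separate matches in 1 window were found for 10 of the 35 genes, beside 3.09% of all genes. The longer CACGTG, which holds ACGTG on both strands and is also bound by MYC, was found for 7 (20% of the 35), beside 8.09% of all genes. These last 2 counts are per gene and were not made per window, and the 35 genes had 51 windows where all 27025 had 32851.

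The following 5 windows are shown because they belong to the gene with the most matches (Ldha), to a classical HIF target with a pair of matches (Pgk1), and to the genes that stood farthest apart between the genotypes among those with a window that passed a filter on low values (Slc16a1 higher in fl/fl, Egln2 and P4ha1 lower). They are written 5′ to 3′ along the strand of the gene, with every ACGTG of either strand in capitals.
Ldha, chr7:46845554-46845853, plus strand: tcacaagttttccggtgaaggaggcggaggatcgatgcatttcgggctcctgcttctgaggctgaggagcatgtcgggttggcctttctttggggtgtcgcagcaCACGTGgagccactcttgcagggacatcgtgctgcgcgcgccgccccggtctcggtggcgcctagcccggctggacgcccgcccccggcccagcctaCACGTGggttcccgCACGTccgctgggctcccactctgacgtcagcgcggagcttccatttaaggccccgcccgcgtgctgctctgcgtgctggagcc
Pgk1, chrX:106186850-106187149, plus strand: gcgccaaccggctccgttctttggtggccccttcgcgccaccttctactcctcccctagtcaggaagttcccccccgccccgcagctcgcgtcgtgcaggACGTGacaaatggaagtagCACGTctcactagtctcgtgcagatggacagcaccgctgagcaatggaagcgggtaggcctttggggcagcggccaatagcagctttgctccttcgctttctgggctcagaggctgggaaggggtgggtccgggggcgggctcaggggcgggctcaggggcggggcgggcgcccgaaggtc
Slc16a1, chr3:104638414-104638713, plus strand: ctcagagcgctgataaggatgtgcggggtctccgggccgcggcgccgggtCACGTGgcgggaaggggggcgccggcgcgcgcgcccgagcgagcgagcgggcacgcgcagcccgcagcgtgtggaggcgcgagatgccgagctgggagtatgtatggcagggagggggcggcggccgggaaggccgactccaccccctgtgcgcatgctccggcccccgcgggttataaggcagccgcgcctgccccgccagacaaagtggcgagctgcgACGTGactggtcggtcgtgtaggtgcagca
Egln2, chr7:27166753-27167052, minus strand: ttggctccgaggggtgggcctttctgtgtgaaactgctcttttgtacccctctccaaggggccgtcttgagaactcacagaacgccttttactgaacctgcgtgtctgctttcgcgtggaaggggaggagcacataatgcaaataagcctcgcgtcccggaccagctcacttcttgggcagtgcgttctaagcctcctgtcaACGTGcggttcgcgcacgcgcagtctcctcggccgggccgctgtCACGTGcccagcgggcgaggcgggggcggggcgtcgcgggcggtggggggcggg
P4ha1, chr10:59323046-59323345, plus strand: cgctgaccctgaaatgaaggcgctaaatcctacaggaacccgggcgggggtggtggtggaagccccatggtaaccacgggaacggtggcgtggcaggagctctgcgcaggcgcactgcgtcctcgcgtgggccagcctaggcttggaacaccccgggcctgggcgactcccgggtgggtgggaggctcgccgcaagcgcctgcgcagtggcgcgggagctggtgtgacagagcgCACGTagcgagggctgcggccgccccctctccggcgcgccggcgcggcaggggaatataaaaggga
In the Ldha window the matches began 145, 48 and 34 bases before the start, and in the Pgk1 window 150 and 131 bases before it. In the Slc16a1 window they began 200 bases before and 20 bases after the start. The Egln2 matches began 48 and 4 bases before the start, and the single P4ha1 match 16 bases before it. The windows of genes higher and lower in fl/fl thus both held ACGTG. A match describes these letters in this stretch of the genome and not binding in these cells.

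Sorted cells of both genotypes carried B cell transcripts at high level. The 7 B cell markers summed to 4854 FPKM in wt/fl against 5126 FPKM in fl/fl, led by the B cell receptor subunits Cd79b (1638 FPKM in wt/fl against 1739 FPKM in fl/fl) and Cd79a (1098 and 1115 FPKM). Part of the higher sum came from Fcer2a, the gene of the sorting marker CD23, at 439 FPKM in wt/fl against 588 FPKM in fl/fl. The study reports more CD23 on the surface of fl/fl follicular B cells. The targeted gene Myh9 was at 50.6 FPKM in wt/fl compared with 21.1 FPKM in fl/fl, a value over the whole coding sequence in which the deleted exon cannot be seen on its own. Of 13 neutrophil markers found, 9 passed the filter, and all 9 were lower in fl/fl. The difference in FPKM + 1 was at least 1.5-fold for 7 of them (S100a8, S100a9, Lcn2, Ngp, Camp, Ltf and Retnlg, 77.8% of the 9 beside 1.53% of all genes). On that scale, Cxcr2 (5.99 FPKM in wt/fl against 4.96 FPKM in fl/fl) and Csf3r (2.32 and 1.51 FPKM) differed by less than 1.5-fold. In FPKM without the added 1, fl/fl was at 64.9% of wt/fl for Csf3r. The marker list was chosen with earlier results of these data known. The sum of all 13 was 387 FPKM in wt/fl against 73.3 FPKM in fl/fl, led by S100a9 (175 and 34.5 FPKM) and S100a8 (145 and 25.8 FPKM). The granule genes Elane and Mpo were under 1 FPKM in wt/fl and at 0 in fl/fl. The 7 erythroid markers summed to 56.1 FPKM in wt/fl against 8.05 FPKM in fl/fl, nearly all of it the beta globin gene Beta-s (52.0 and 7.08 FPKM), the single erythroid marker that passed the filter. The 7 macrophage markers summed to 14.5 and 13.8 FPKM, with Cd68 (7.41 and 6.10 FPKM) and C1qb (1.61 and 2.39 FPKM) the most abundant. Of the 4 that passed the filter, 2 were higher and 2 lower in fl/fl. Adgre1, just below the filter, was at 1.34 FPKM in wt/fl against 0.652 FPKM in fl/fl. The 6 T cell markers summed to 22.8 and 21.4 FPKM, most of it Lck (14.5 FPKM in both), followed by Cd3d (3.02 and 2.31 FPKM). Of the 4 that passed, 2 were higher and 2 lower in fl/fl, among them Cd3e (1.83 and 1.96 FPKM) and Cd3g (1.96 and 1.26 FPKM). In such bulk samples, fewer cells of a type and less RNA per cell cannot be told apart.

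Differences are given from here on as the log2 ratio of FPKM + 1, fl/fl over wt/fl, a scale that understates the change of genes at low level. A gene counts as past a threshold when FPKM + 1 differed by at least 1.5-fold. Among the 29 genes that passed the filter, 14 were higher and 15 lower in fl/fl, and their median log2 ratio was -0.0096, beside 0.0026 over all 9866 genes. Of the 29, 25 lay between the 5th and 95th percentile of all genes (-0.34 and 0.31), and 20 differed by less than 0.2 in either direction. None of the 29 was higher by at least 1.5-fold, where 0.791% of all genes were, and 1, P4ha1, was lower by at least 1.5-fold (3.45% of the 29, where 1.53% of all genes were). At a lower threshold, a log2 ratio of 0.32 in either direction, 1 was higher (Slc16a1, 3.45% of the 29 beside 4.6% of all genes) and 4 were lower (Aldoc, Egln2, P4ha1 and Higd1a, 13.8% of the 29 beside 5.48% of all genes). The summed level of the 36 genes was 962 FPKM in wt/fl compared with 986 FPKM in fl/fl, 2.50% more.

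**Figure D1:**
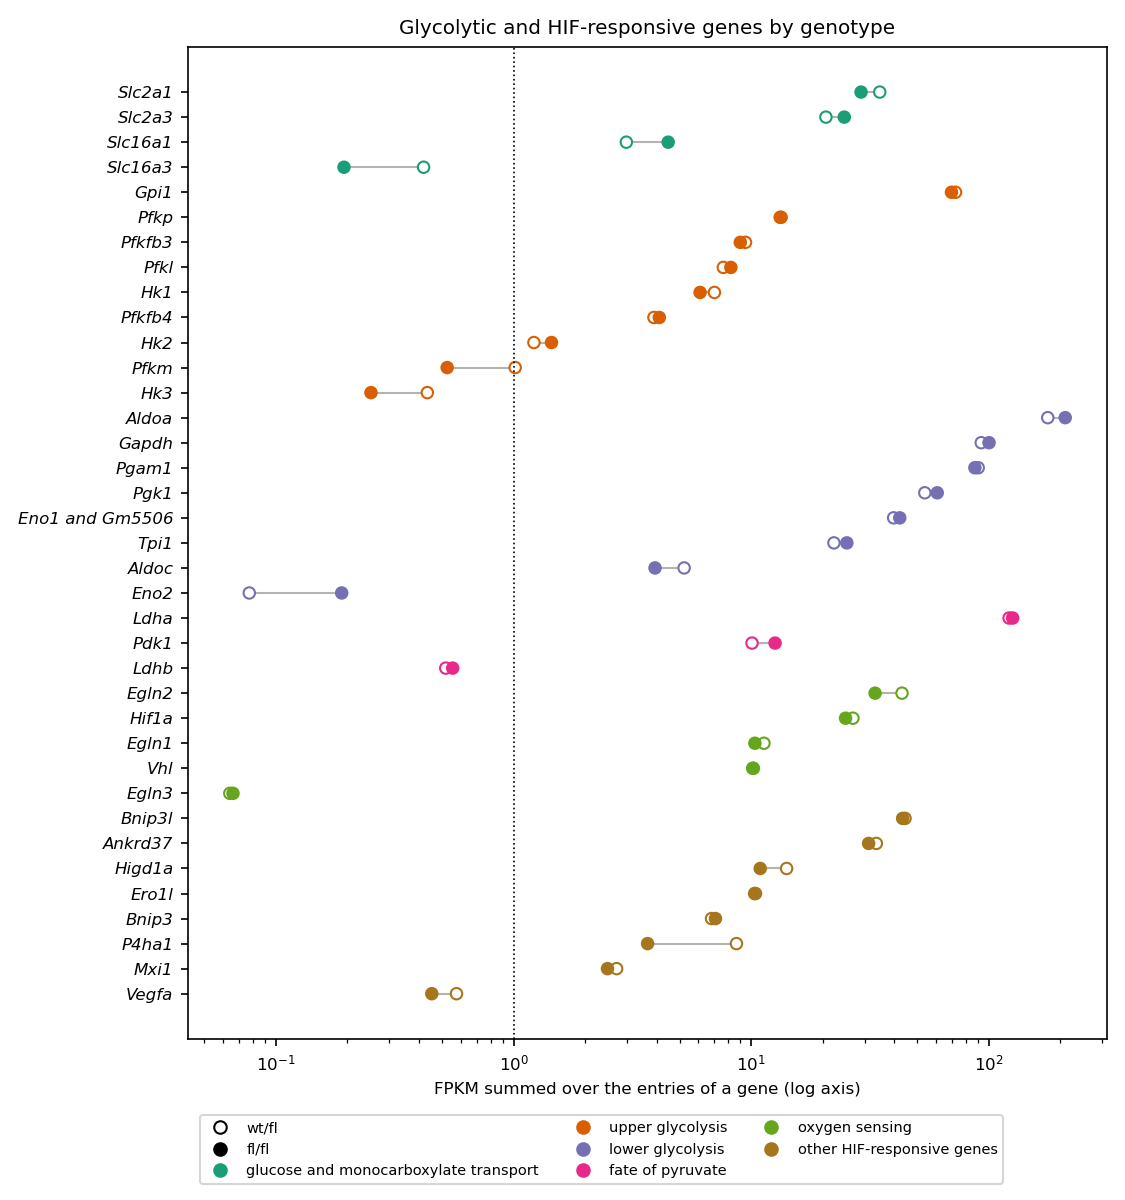
FPKM of each gene in wt/fl (open circles) and fl/fl (filled circles) on a log axis, grouped by role, each value the authors' pooled value of a genotype; the dotted line marks 1 FPKM, and the entry that Eno1 shares with Gm5506 is shown as 1 row. Most pairs of circles lie close together, and P4ha1 (8.67 and 3.66 FPKM) is the pair farthest apart among genes above the line in both genotypes.

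Glucose enters B cells through carriers of the SLC2A family, and the most abundant carriers differed in opposite directions. Slc2a1, which encodes the ubiquitous carrier GLUT1, was at 34.8 FPKM in wt/fl against 29.0 FPKM in fl/fl (log2 ratio -0.25). Slc2a3, which encodes the high-affinity carrier GLUT3, was at 20.6 FPKM in wt/fl against 24.6 FPKM in fl/fl (0.25). Of the summed FPKM of 6 SLC2A genes (67.0 in wt/fl compared with 63.0 in fl/fl), Slc2a1 made up 51.9% in wt/fl against 46.0% in fl/fl, and Slc2a3 30.8% and 39.1%. The order of these carriers was the same in both genotypes, and the gap between them was smaller in fl/fl.

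Lactate and pyruvate cross the plasma membrane through the monocarboxylate carriers. Slc16a1, the widely expressed carrier MCT1, was at 2.98 FPKM in wt/fl against 4.47 FPKM in fl/fl (log2 ratio 0.46). This was the highest ratio among the 29, and 169 of all 9866 genes had a ratio at least as high. Slc16a3, the HIF-induced lactate exporter MCT4, was at 0.418 FPKM in wt/fl compared with 0.193 FPKM in fl/fl, below the filter. Slc16a1 thus made up 87.7% of the summed FPKM of both carriers in wt/fl against 95.9% in fl/fl.

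The genes of the upper steps, from hexokinase to phosphofructokinase, lay close to equality: 4 of the 7 that passed the filter were higher and 3 lower in fl/fl, with a median log2 ratio of 0.012 and a range from -0.17 to 0.14. Hexokinase traps glucose in the cell by phosphorylation, and Hk1 was its main form, at 7.003 FPKM in wt/fl against 6.10 FPKM in fl/fl (-0.17). Hk2, the form that growth signals and HIF induce, was just above the filter, at 1.22 FPKM in wt/fl compared with 1.44 FPKM in fl/fl (0.14). Hk3, a form typical of myeloid cells, was at 0.434 FPKM in wt/fl against 0.251 FPKM in fl/fl, below the filter, beside summed neutrophil markers of 387 and 73.3 FPKM, whose part in these values was not tested. Gpi1, the glucose-6-phosphate isomerase, was the most abundant of the upper genes, at 72.4 FPKM in wt/fl against 69.6 FPKM in fl/fl (-0.06).

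Phosphofructokinase commits sugar to glycolysis, and its platelet form Pfkp led in both genotypes, at 13.2 FPKM in wt/fl compared with 13.4 FPKM in fl/fl (log2 ratio 0.01). The liver form Pfkl was at 7.63 FPKM in wt/fl against 8.21 FPKM in fl/fl (0.09). The muscle form Pfkm was at 1.02 FPKM in wt/fl against 0.526 FPKM in fl/fl, and its mean of 0.771 FPKM fell just short of the filter that Hk2, with a mean of 1.33 FPKM, just passed. Pfkp made up 60.5% of the family's FPKM in both genotypes. The bifunctional PFKFB enzymes make and break fructose-2,6-bisphosphate, the strongest activator of phosphofructokinase. Pfkfb3 was at 9.47 FPKM in wt/fl compared with 8.998 FPKM in fl/fl (-0.07). Pfkfb4 was at 3.90 FPKM in wt/fl against 4.11 FPKM in fl/fl (0.06). With Pfkfb2 (10.04 and 9.86 FPKM) and Pfkfb1 (2.79 and 3.06 FPKM), the family summed to 26.2 FPKM in wt/fl against 26.0 FPKM in fl/fl.

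The genes of the lower steps, from aldolase to enolase, ranged in mean level from 0.133 FPKM (Eno2) to 193 FPKM (Aldoa, the most abundant gene of the whole set), and 4 of the 6 that passed the filter were higher in fl/fl, with a median log2 ratio of 0.14. The entry that Eno1 shares with Gm5506 was not counted here, and with it the median was 0.11. With Eno2 and without that entry, the group summed to 442 FPKM in wt/fl compared with 487 FPKM in fl/fl. The fl/fl sum was 10.4% more, and most of the excess came from Aldoa. Aldoa, the aldolase of most tissues, was at 177 FPKM in wt/fl against 209.7 FPKM in fl/fl (0.24), a level above that of 97.1% of all genes. Aldoc, the aldolase best known from brain, went the other way, at 5.22 FPKM in wt/fl against 3.94 FPKM in fl/fl (-0.33), and made up 2.86% of aldolase FPKM in wt/fl compared with 1.84% in fl/fl. Tpi1, the triosephosphate isomerase, was at 22.3 FPKM in wt/fl against 25.3 FPKM in fl/fl (0.17).

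Gapdh, which makes the first NADH of the pathway, was at 92.9 FPKM in wt/fl against 100.2 FPKM in fl/fl (log2 ratio 0.11). Pgk1, the first enzyme of the pathway to yield ATP, was at 53.8 FPKM in wt/fl compared with 60.7 FPKM in fl/fl (0.17). The mutase Pgam1 was at 90.2 FPKM in wt/fl against 87.4 FPKM in fl/fl (-0.05), and made up 95.05% of the FPKM of Pgam1 and Pgam2 in wt/fl against 94.6% in fl/fl. The entry shared by the enolase Eno1 and its near-copy Gm5506 was at 39.8 FPKM in wt/fl compared with 42.2 FPKM in fl/fl (0.08), and the neuronal enolase Eno2 was below the filter, at 0.0773 and 0.189 FPKM. Over the 12 glycolytic enzymes of both stages that passed, with Ldha and without the PFKFB genes and the shared Eno1 entry, the median log2 ratio was 0.072.

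**Figure D2:**
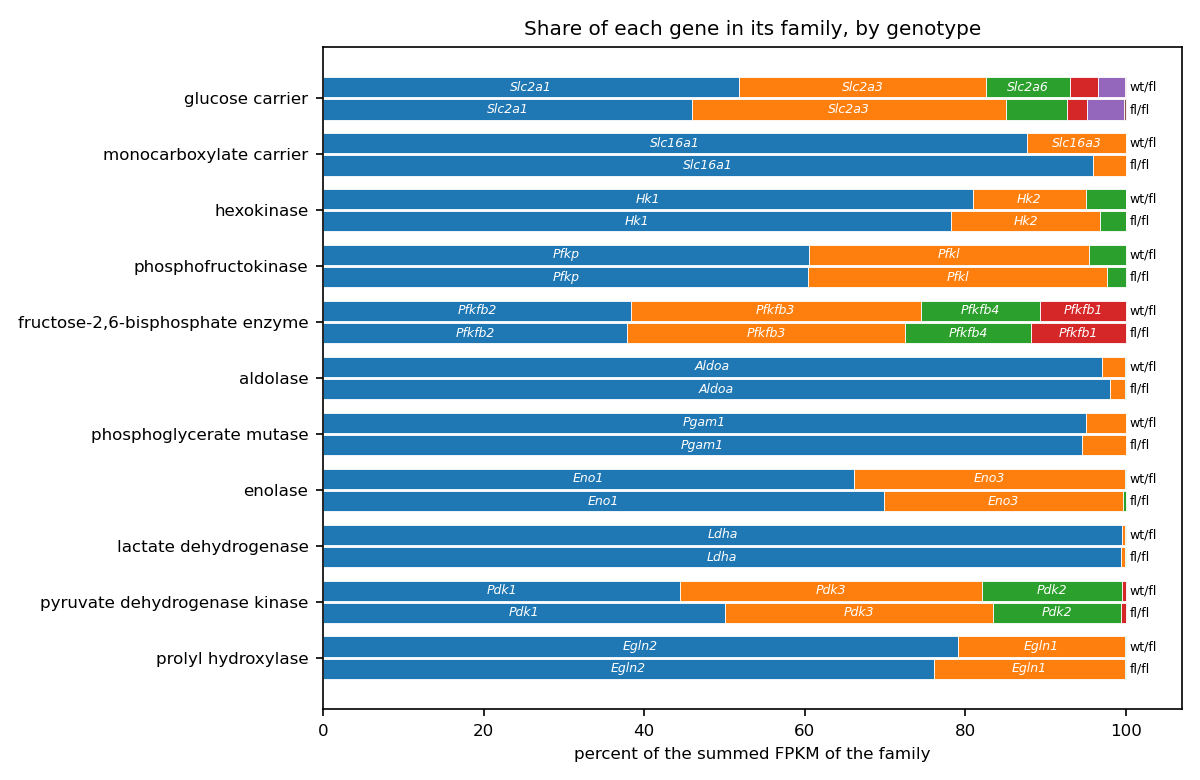
Share of each gene in the summed FPKM of its family, in percent, with the wt/fl bar above the fl/fl bar; genes are ordered by their wt/fl share and named where the share exceeds 9%, and Eno1 stands for the entry shared with Gm5506. The same gene leads each of the 11 families in both genotypes, and the widest shifts are in the glucose carriers, where Slc2a3 takes 30.8% in wt/fl against 39.1% in fl/fl, and in the monocarboxylate carriers. The latter are 2 genes, of which Slc16a3 is under 1 FPKM in both genotypes, so little can be read from their shift.

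Pyruvate is either reduced to lactate or passed to mitochondria. Ldha, the subunit that favors lactate, was at 122 FPKM in wt/fl against 126 FPKM in fl/fl (log2 ratio 0.05). Ldhb, the subunit that favors pyruvate, was at 0.519 FPKM in wt/fl compared with 0.555 FPKM in fl/fl, so that Ldha made up 99.5% of lactate dehydrogenase FPKM in wt/fl against 99.4% in fl/fl. Pdk1, a HIF-induced kinase that turns off pyruvate dehydrogenase and thereby keeps pyruvate out of mitochondria, was at 10.1 FPKM in wt/fl against 12.6 FPKM in fl/fl (0.30). Its share of the 4 PDK genes was 44.5% in wt/fl compared with 50.1% in fl/fl. The other abundant kinase of the family, Pdk3, was at 8.51 FPKM in wt/fl against 8.41 FPKM in fl/fl.

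The oxygen-sensing genes were the one role group in which each gene that passed the filter was lower in fl/fl: all 4 were, with a median log2 ratio of -0.11 and a summed FPKM, Egln3 included, of 91.5 in wt/fl against 78.7 in fl/fl. Hif1a, the oxygen-labile subunit of HIF, was at 26.8 FPKM in wt/fl compared with 24.95 FPKM in fl/fl (-0.10). Egln1, the main hydroxylase acting on HIF in most cells, was at 11.3 FPKM in wt/fl against 10.4 FPKM in fl/fl (-0.12). Vhl, the substrate receptor of the ligase, was at 10.2 FPKM in wt/fl against 10.1 FPKM in fl/fl (-0.01).

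Most of that difference lay in Egln2, the prolyl hydroxylase whose level was highest in these cells, at 43.1 FPKM in wt/fl compared with 33.2 FPKM in fl/fl (log2 ratio -0.37). It made up 79.1% of EGLN FPKM in wt/fl against 76.1% in fl/fl, and 421 of all 9866 genes had a ratio as low or lower. Egln3, the family member most strongly induced by low oxygen in many cell types, was near 0, at 0.0640 FPKM in wt/fl against 0.0660 FPKM in fl/fl. The Egln2 difference was not set against the spread between mice, since the values used are pooled.

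The remaining HIF-responsive genes were mostly close to equality, apart from P4ha1. P4ha1 encodes the catalytic subunit of the prolyl 4-hydroxylase that acts on collagen in the endoplasmic reticulum and, like the EGLN enzymes, needs oxygen, iron and alpha-ketoglutarate. It was at 8.67 FPKM in wt/fl compared with 3.66 FPKM in fl/fl, 42.3% of the wt/fl level, with a log2 ratio of -1.05. Of all 9866 genes, 36 had a ratio as low or lower. The gene lies at chr10:58786043-58836052 on mm9, the build that the positions in the authors' table follow, and had a single entry. The neutrophil markers (387 and 73.3 FPKM in sum) and erythroid markers (56.1 and 8.05 FPKM) were lower in the same group, and their part in the P4ha1 value was not tested.

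Higd1a, a small protein of the mitochondrial inner membrane that low oxygen induces, was at 14.1 FPKM in wt/fl against 10.9 FPKM in fl/fl (log2 ratio -0.34). Ankrd37, an ankyrin repeat protein whose gene is a HIF target, was at 33.6 FPKM in wt/fl against 31.2 FPKM in fl/fl (-0.10). Mxi1, a partner of MAX that opposes MYC, was at 2.72 FPKM in wt/fl compared with 2.48 FPKM in fl/fl (-0.09). These 3 differed by less than 1.5-fold, and the log2 ratio of Mxi1 was 0.24 when its highest entry alone was used. Bnip3l, a receptor that directs mitochondria to autophagy, was the most abundant of the HIF-responsive genes, at 44.4 FPKM in wt/fl against 43.4 FPKM in fl/fl (-0.03). Its relative Bnip3 was at 6.81 FPKM in wt/fl against 7.08 FPKM in fl/fl (0.05). Ero1l, the oxidase that drives disulfide bond formation in the endoplasmic reticulum, was at 10.3 FPKM in wt/fl compared with 10.4 FPKM in fl/fl (0.01). Vegfa, the angiogenic growth factor and the best-known HIF target, was below the filter, at 0.576 FPKM in wt/fl against 0.453 FPKM in fl/fl. Over the 8 genes the summed FPKM was 121 in wt/fl against 109.6 in fl/fl, and the 7 that passed had a median log2 ratio of -0.092.

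**Figure D3:**
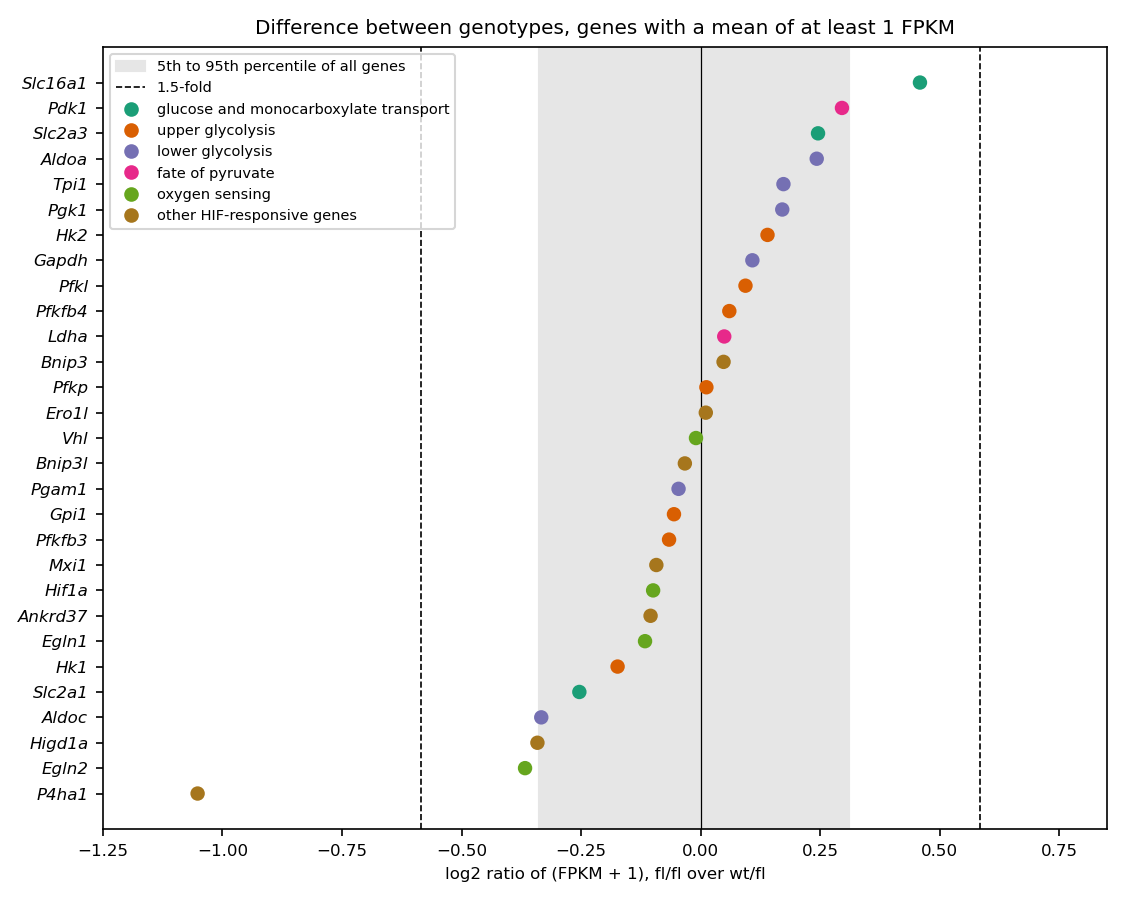
Log2 ratio of FPKM + 1, fl/fl over wt/fl, for the 29 genes that average 1 FPKM or more, ordered by value and coloured by role; the grey band spans the 5th to 95th percentile of all 9866 genes and the dashed lines mark 1.5-fold. P4ha1 (-1.05) is the single point beyond a dashed line, and Slc16a1 (0.46), Egln2 (-0.37) and Higd1a (-0.34) are the others outside the band.

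Set beside the promoter windows, the 20 genes that passed the filter and held ACGTG had a median log2 ratio of -0.079, from -1.05 to 0.46, and 8 of them were higher in fl/fl. The 7 with a window but no match had a median of 0.060, from -0.056 to 0.30, and 5 were higher in fl/fl. Both groups held genes higher and genes lower in fl/fl, and the difference between the groups was not tested.

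The authors' table gives separate entries to transcripts with different coding sequences, and 7 of the 36 genes had more than 1. The entries of a gene did not always differ in the same direction. The main Mxi1 entry was at 1.46 FPKM in wt/fl compared with 1.91 FPKM in fl/fl, whereas the second was at 1.17 FPKM in wt/fl against 0.571 FPKM in fl/fl, so the first made up 53.8% of the gene in wt/fl against 77.0% in fl/fl. Of 8 Pfkfb3 entries, 4 reached at least 0.1 FPKM, and entries 3 and 4 crossed, from 1.30 to 0.451 FPKM and from 0.856 to 1.42 FPKM. The second Hk1 entry was close to 0 in wt/fl and at 0.499 FPKM in fl/fl, where it made up 8.19% of the gene. The minor Aldoa entry was at 2.07 FPKM in wt/fl compared with 6.25 FPKM in fl/fl, 1.17% and 2.98% of the gene. The split of fragments between overlapping transcripts is an estimate, and its error is unknown here.

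**Figure D4:**
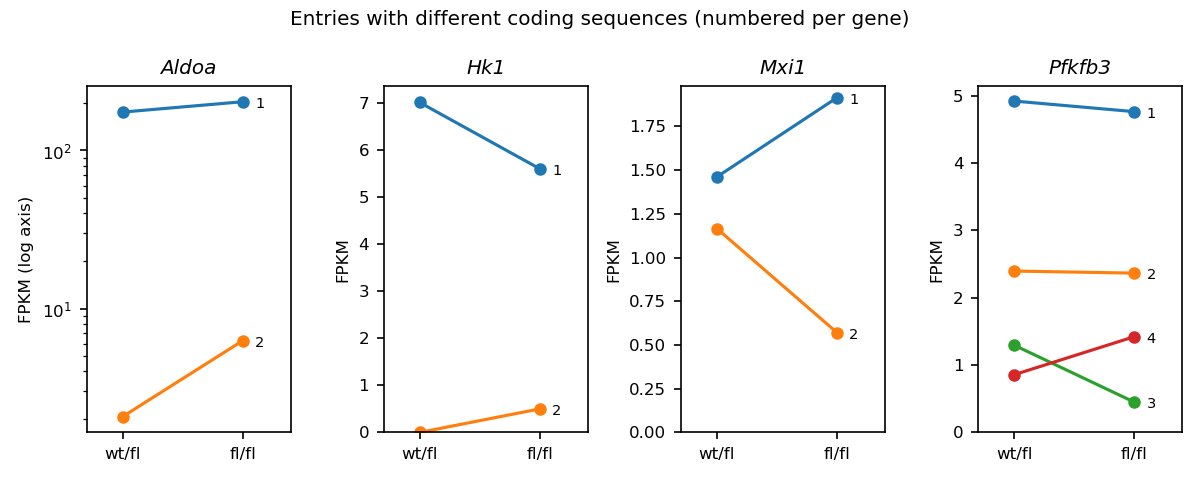
FPKM of the entries of at least 0.1 FPKM for Aldoa (log axis), Hk1, Mxi1 and Pfkfb3 (linear axes from 0), 1 line per entry and numbered by wt/fl level within a gene. The lines of entries 1 and 2 of Mxi1 part (1.91 and 0.571 FPKM in fl/fl) and those of entries 3 and 4 of Pfkfb3 cross.

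Several glycolytic genes have near-identical copies elsewhere in the genome, which can take or give fragments. Among GENCODE M21 transcripts, 11 of the 37 genes matched another gene at 95% identity or more over at least 200 bases. Gapdh matched 77, of which 75 are annotated as pseudogenes, Pgk1 and Ldha matched 4 each, Eno1 and Bnip3 3 each, and Gpi1, Tpi1, Pgam1, Ldhb, Bnip3l and Higd1a 1 each. The FPKM of these 11 is therefore uncertain. P4ha1, Egln2, Slc16a1, Aldoa and Aldoc had no such copy.

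The genes around this set were described from further lists. Of 21 other glycolysis genes, 13 passed the filter, with a median log2 ratio of -0.022 and none past 1.5-fold. They include the last enzyme of the pathway, the pyruvate kinase Pkm, at 54.9 FPKM in wt/fl against 59.5 FPKM in fl/fl, and Eno3, the muscle enolase, at 20.3 and 18.0 FPKM. Of 12 genes for the entry of pyruvate into mitochondria, 11 passed, with a median of 0.017 and none past 1.5-fold. The most abundant were the pyruvate dehydrogenase subunit Pdhb (71.1 FPKM in wt/fl against 68.8 FPKM in fl/fl) and the pyruvate carrier Mpc1 (48.8 and 55.5 FPKM). All 8 genes of the pentose phosphate pathway, which draws glucose-6-phosphate off for NADPH and ribose, passed, with a median of 0.0015 and none past 1.5-fold. Its most abundant genes were Pgls (86.6 FPKM in wt/fl compared with 83.3 FPKM in fl/fl) and Taldo1 (79.8 and 84.1 FPKM).

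Of 14 upstream regulators of glycolysis, 13 passed, with a median log2 ratio of 0.012 and none past 1.5-fold. The most abundant was Txnip, whose product curbs glucose uptake, at 274 FPKM in wt/fl against 208 FPKM in fl/fl (-0.40), followed by Stk11, a kinase upstream of AMPK, at 57.9 and 58.2 FPKM. Of 15 HIF partners and regulators, 12 passed, with a median of -0.058 and none past 1.5-fold. The elongin subunit Tceb2 was at 199.8 FPKM in wt/fl against 196.5 FPKM in fl/fl, and the coactivator Crebbp at 64.7 and 66.8 FPKM. These lists, like the glycolytic enzymes, lay close to the median of all genes.

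The other listed genes that low oxygen can induce were spread more widely. Of 21 listed, 14 passed, with a median log2 ratio of -0.16. By at least 1.5-fold, 4 were lower (28.6% of the 14 beside 1.53% of all genes) and 1 higher (7.14% beside 0.791%). The list was chosen with earlier results of these data known, so these shares cannot be read as a trait of hypoxia-induced genes at large. Cxcr4, the chemokine receptor that holds B cells in dark zones and bone marrow niches, was at 113 FPKM in wt/fl compared with 39.7 FPKM in fl/fl (-1.49). Ddit4, an inhibitor of mTOR signaling that stress and glucocorticoids also induce, was at 22.6 FPKM in wt/fl against 8.95 FPKM in fl/fl, 39.6% of the wt/fl level. Ankzf1, a factor in the release of stalled peptides from ribosomes, was at 8.35 FPKM in wt/fl against 4.30 FPKM in fl/fl (-0.82). The procollagen lysyl hydroxylase Plod1 was at 2.92 FPKM in wt/fl compared with 1.27 FPKM in fl/fl (-0.79). The heme oxygenase Hmox1 went the other way, at 1.51 FPKM in wt/fl against 2.98 FPKM in fl/fl (0.66). Wsb1, the second most abundant of the list, was at 53.1 FPKM in wt/fl against 53.8 FPKM in fl/fl. Several of these genes respond to signals other than oxygen, and the neutrophil and erythroid markers were lower in the same group, whose part in these values was not tested.

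**Figure D5:**
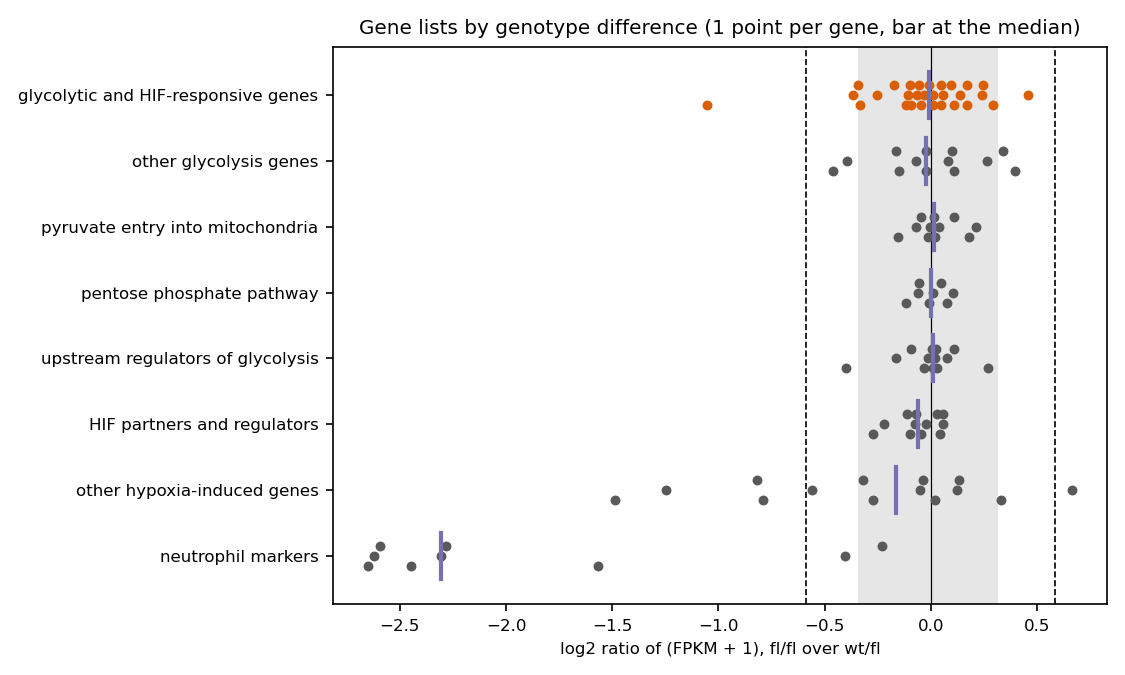
Log2 ratio of FPKM + 1, fl/fl over wt/fl, for every gene averaging 1 FPKM or more in the glycolytic and HIF-responsive set (orange) and in other lists (grey), with a bar at each median, a grey band from the 5th to the 95th percentile of all genes and dashed lines at 1.5-fold; points are offset vertically for legibility. Medians of the metabolic lists lie near 0, that of the other hypoxia-induced genes at -0.16 and that of the neutrophil markers at -2.31.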

How the data were processed

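Follicular B cells of wt/fl and fl/fl mice were sorted, with 3 samples per genotype, and RNA was amplified with the NuGen Ovation system before library preparation. The authors deposited a single table in the layout of Cuffdiff, with 25017 entries, 1 for each set of transcripts that share a coding sequence, and 1 FPKM per genotype, pooled over its 3 samples. FPKM scales fragments to transcript length and library size. Depth per sample is unknown, so no interval was computed. The submitters' processing notes name Bowtie, TopHat and Cufflinks, without versions, and the builds mm10 and GRCm38, whereas the positions in the table follow mm9 and were not converted. The table also holds the authors' fold change, test statistic, p-value, q-value and a significance flag, none of which was used. No per-sample column was left unmatched.

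FPKM was summed per gene symbol (20458 names), 44 entries whose symbols read as dates were left out, and genes averaging 1 FPKM or more were retained (9866). The sum of FPKM was 595296 for wt/fl and 596105 for fl/fl. Differences are log2 ratios with a pseudocount of 1 FPKM, counted past 1.5-fold. No test was made, since pooled values give no spread between samples and the authors' own comparison was not used. The genes and lists were chosen with earlier results of these data known. Named were every listed gene, Myh9, and of other lists the 2 most abundant genes and those past 1.5-fold. Pfkfb1, Pfkfb2, Pgam2, Pdk3, Elane, Mpo, Cxcr2, Csf3r, Adgre1, Cd3e, Cd3g, Fcer2a and the genes of the closing observations were named outside this rule, after their values were seen. Protein sequences were not used here. Promoter windows came from RefSeq (GRCm38.p6), and copies were searched with blastn 2.17.0 in GENCODE M21 transcripts. Python 3.11.15, pandas 2.3.3, NumPy 2.4.6 and matplotlib 3.10.9 were used, and the computations were tested on simulated data. Alternatives were pseudocounts of 0.1 and 0.5, a minimum of 5 FPKM or none, the highest entry of each gene, other scalings, other fold thresholds, and Eno1 added through its shared entry, the last chosen after seeing the data.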

Additional observations from a re-analysis of the deposited data

How the results depend on the processing

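The median log2 ratio of the transport genes, 0.25 over 3 genes, was -0.0039 with a minimum of 5 FPKM and -0.0017 with no filter, and that of the genes for the fate of pyruvate, 0.17 over 2 genes, was 0.049 with no filter, each because the number of genes changed. A threshold of 0.32 on the log2 scale gave 1 gene higher and 4 lower in place of 0 and 1. No spread between replicates was available. A value was taken as moved when it shifted by over 0.1 on the log2 scale or 5 percentage points of a share. The fold thresholds gave no single values, and the filters and the added Eno1 entry could not change a gene's own ratio. Setting the median of all genes to 0 shifted every ratio by the same 0.0026. Part of the 245 single values was thus fixed in advance, and 241 did not move. The exceptions were Slc16a1 (0.57) and P4ha1 (-1.22) with a pseudocount of 0.1, and Hk1 (-0.28) and Mxi1 (0.24) from the highest entry alone. Mxi1 was the one gene whose sign changed. P4ha1 ranged from -1.22 to -1.05. The median of all genes moved between -0.0032 and 0.011 over the settings. No paired analysis was possible because the table holds 1 pooled value per genotype, and for the same reason no replicate could be left out. Depth is unknown, so little can be read from differences in genes under 1 FPKM.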

Other observations

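P4ha1 and Plod1 both act on procollagen in the endoplasmic reticulum, and the genes that work beside them, chosen after their values were seen, did not stand apart in the same way. P4hb, the partner subunit of the prolyl 4-hydroxylase, was at 44.6 FPKM in wt/fl compared with 41.4 FPKM in fl/fl (log2 ratio -0.10). Plod3 was at 4.43 FPKM in wt/fl against 4.35 FPKM in fl/fl (-0.02), and Crtap, a cofactor of collagen prolyl 3-hydroxylation, at 4.79 and 4.12 FPKM (-0.18). The other catalytic subunits P4ha2 and P4ha3 were below 0.3 FPKM in both genotypes.

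Among other glycolysis genes, also named after their values were seen, the glucose carriers Slc2a6 (6.98 FPKM in wt/fl against 4.79 FPKM in fl/fl) and Slc2a8 (2.34 and 1.55 FPKM) were lower in fl/fl. In FPKM + 1 they differed by over 0.32 on the log2 scale but by less than 1.5-fold. Pgm2 (5.19 and 7.15 FPKM) and Bpgm, the source of 2,3-bisphosphoglycerate (9.08 and 11.8 FPKM), were higher within the same limits. Bhlhe40, a hypoxia-induced repressor, was at 25.7 FPKM in wt/fl compared with 17.2 FPKM in fl/fl (-0.56), just short of 1.5-fold.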
